A study of Mus musculus with 2 samples.

Results

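The cells described here are those that had UMIs of Ccr7 and Fscn1, little Ccl5, and no UMI of Cd3e, Cd79a or Siglech. They were chosen by measured values: a deposited natural log value above 0 for Ccr7 and Fscn1, below 2.5 for Ccl5, and 0 for the T cell gene Cd3e, the B cell gene Cd79a and the plasmacytoid dendritic cell gene Siglech. The rule took 105 of 12458 cells, of which 36 came from tumours, 45 from tumour-draining lymph nodes (dLN) and 24 from non-draining lymph nodes (ndLN). A value of 2.5 is equal to 11.2 Ccl5 UMIs per 10000 UMIs of a cell. The 713 cells that met every other condition but had more Ccl5 serve as the nearest comparison. The 105 cells are called Ccl5-low cells below and the 713 are called Ccl5-high cells.

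Dendritic cells take up antigen and, once activated, switch on the chemokine receptor Ccr7 and the actin-bundling protein Fscn1, stop taking up antigen and move to the T cell zones of lymph nodes. In that mature state they load peptides on MHC molecules, carry costimulatory ligands such as Cd80, Cd86 and Cd40, and secrete chemokines such as Ccl17 and Ccl22 that draw T cells carrying Ccr4. The same state carries ligands that hold T cells back, among them Cd274 (PD-L1), and the amino acid oxidase Il4i1, so mature dendritic cells in tumours are also described as regulatory. Ccl5 is a chemokine that attracts T cells, monocytes and other leukocytes.

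The study compared mice in which Havcr2, the gene of the inhibitory receptor TIM-3, was targeted (KO) with Havcr2fl/fl controls, whose Havcr2 alleles are floxed (WT), all of the C57Bl6 strain. The sources used here give neither the cells that carried the deletion and its driver nor the age and sex of the mice. All mice carried a subcutaneous MC38-OVAdim tumour, a colon carcinoma line with an ovalbumin antigen. CD45+ cells with extra dendritic cells were sorted from the tumour, dLN and ndLN of 2 KO and 2 WT mice, tagged by sample with CD45 oligonucleotide antibodies and read by droplet 5′ single-cell RNA-seq. Each of 2 channels held 1 KO mouse and 1 WT mouse, named KO1 and WT1 for the first and KO2 and WT2 for the second, and the mouse is the replicate.

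The 12 samples held 3031124 to 28498154 UMIs in all. The 105 cells held 772 to 76129 UMIs each, with a median of 9981, and the Ccl5-high cells had a median of 7894. Mitochondrial genes gave at least 5% of the UMIs in 7 of 105 Ccl5-low cells, and the highest share was 32.4%. The channels shared 65 cell barcodes, 4 of them in Ccl5-low cells. A UMI is 1 captured molecule, and levels below are means over the cells of a mouse in UMIs per 10000. The sort sets how many dendritic cells enter the data, so shares of cells hold for these sorted samples. Free RNA from broken cells can enter any droplet, and some shares with a UMI are given beside those of cells that should lack the gene.

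Havcr2 was checked first. In all tumour cells its level was 0.259 and 0.1504 UMIs per 10000 in KO1 and KO2, against 0.737 and 0.839 UMIs per 10000 in WT1 and WT2. The KO samples were lower in each tissue and were not at 0. Among Ccl5-low tumour cells 3 of 7 and 0 of 5 KO cells had a Havcr2 UMI, against 7 of 20 and 1 of 4 WT cells. None of 45 dLN and none of 24 ndLN Ccl5-low cells had one, which allows shares of cells with a UMI of up to 6.67% and 12.5%. These limits pool KO and WT cells and take the cells of 4 mice as independent. The WT cells alone were 24 in dLN and 11 in ndLN, so their limits are wider. The limits concern the cells with a UMI and not the cells that express the gene. Its level in whole nodes was low, at most 0.0982 UMIs per 10000.

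Few of all Ccr7+ Fscn1+ cells lay near the limit of the rule, but the small Ccl5-low class changed with the limit. It held 75 cells with a limit of 1.5 and 147 with a limit of 3.5. In dLN these limits gave 11 and 13 cells in KO1 and 8 and 11 in KO2. They gave 8 and 28 in WT1 and 5 and 18 in WT2. Of the 105 cells, 39 had no Ccl5 UMI, and the highest value below the limit was 2.49. The lowest value among Ccl5-high cells was 2.52, and the median of those cells was 5.30, equal to 198.5 UMIs per 10000. Between values of 2 and 3 lay 14 Ccl5-low and 19 Ccl5-high cells. The 5 cells just inside the limit, at 2.33 to 2.49, each had UMIs of Cacnb3 and Il4i1. Of the 5 cells just outside it, at 2.52 to 2.64, 3 had UMIs of both.

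**Figure D1:**
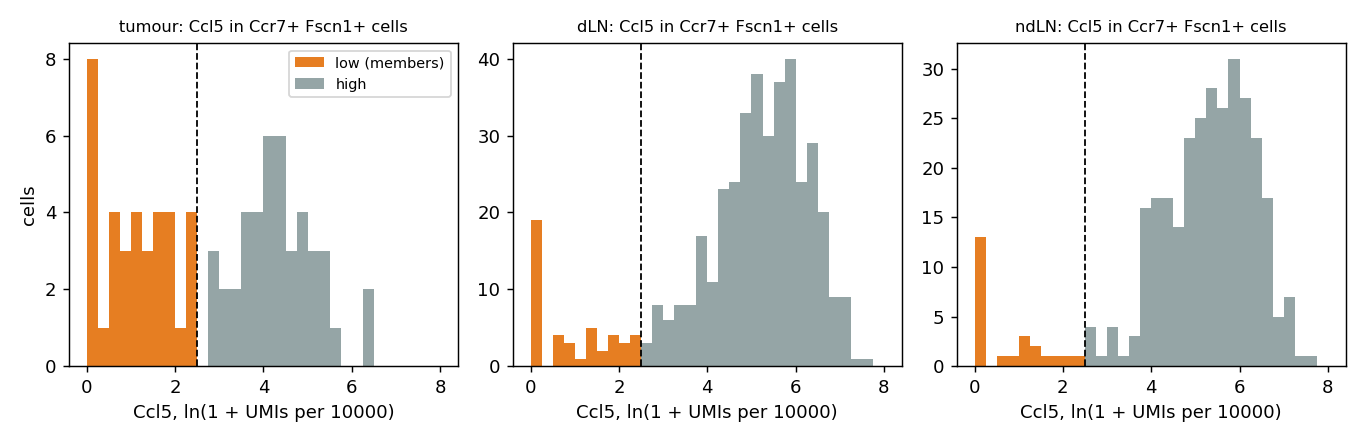
Distribution of the deposited natural log value of Ccl5 over Ccr7+ Fscn1+ cells of each tissue, with Ccl5-low cells in orange, Ccl5-high cells in grey and the limit of 2.5 as a dashed line. Most node cells lie far above the limit (median 5.37 in dLN and 5.43 in ndLN for Ccl5-high cells), and 14 Ccl5-low and 19 Ccl5-high cells lie between 2 and 3.

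The label of mature dendritic cells was checked with Cacnb3, a calcium channel subunit, and Il4i1, both high in mature dendritic cells and neither used by the rule. UMIs of both genes were present in 50 of 105 Ccl5-low cells, against 613 of 713 Ccl5-high cells. At least 1 of the 2 genes was present in 22 of 36 tumour cells, 36 of 45 dLN cells and 21 of 24 ndLN cells. The remaining 26 Ccl5-low cells had neither, 14 of them from tumours. Exactly 1 UMI each of Ccr7 and Fscn1 put 16 Ccl5-low cells in the group, 11 of them from tumours, against 4 Ccl5-high cells. By genotype these were 3 of 21 KO cells and 0 of 24 WT cells in dLN, and 2 of 13 KO cells and 0 of 11 WT cells in ndLN.

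The tumour cells went against the label most often. Transcripts of C1qa, C1qb and C1qc, complement genes that mark macrophages, were all present in 20 of 36 tumour cells, in 1 of 45 dLN cells and in 0 of 24 ndLN cells. This was not particular to the Ccl5-low class, since 17 of 43 Ccl5-high tumour cells had all 3 as well. The summed level of 10 macrophage and monocyte genes was 204 and 415 UMIs per 10000 in the tumour cells of KO1 and KO2, against 102 and 218 UMIs per 10000 in those of WT1 and WT2, and it spanned 0 to 613 over single cells. In dLN the same sum was 6.39 and 6.86 in KO1 and KO2, against 21.5 and 1.99 in WT1 and WT2. In Ccl5-high tumour cells it was 246 and 298 in KO1 and KO2, against 65.3 and 55.5 in WT1 and WT2. KO2 held 1 such cell. Of all 2721 tumour cells with UMIs of the 3 C1q genes, 6.95% had a Ccr7 UMI and 14.4% an Fscn1 UMI, at a median of 20838 UMIs per cell. The tumour cells are therefore called by the rule here, and no cell type is given to them.

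In the nodes, 35 of 69 Ccl5-low cells had both Cacnb3 and Il4i1. Among the node T cells, defined as 3209 cells with Cd3e and without Cd79a, Cacnb3 had a UMI in 2.28% and Il4i1 in 1.37%. The 7 genes of a conventional dendritic cell list, among them Flt3, Zbtb46, H2-Aa and Cd74, summed to 617 and 608 UMIs per 10000 in the dLN cells of KO1 and KO2, against 498 and 279 in WT1 and WT2. In the other dLN cells, neither Ccl5-low nor Ccl5-high, the sum was 269 and 307.5 in KO1 and KO2, against 188 and 160 in WT1 and WT2. The Ccl5-low cells were above the other cells of the same mouse in 4 of 4 mice. The Ccl5-high dLN cells had sums of 134.9 and 115.4 in KO1 and KO2, against 114.8 and 106.2 in WT1 and WT2. They were below the other cells in 4 of 4 mice, so this sum does not mark the mature state. At least 1 of Cacnb3 and Il4i1 was thus found in most node cells and in a smaller share of the tumour cells.

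Genes of other lineages had UMIs in the node cells. Cd8a, a chain found on CD8 T cells and also on resident type 1 dendritic cells, had a UMI in 17 of 45 dLN and 7 of 24 ndLN Ccl5-low cells. These are 37.8% and 29.2%, against 1.85% and 5.84% of Ccl5-high cells and 50.5% and 52.6% of T cells of dLN and ndLN. Cd209a, a lectin of type 2 dendritic cells, had a UMI in 8 of 45 and 3 of 24. In dLN these were 6 of 21 KO cells, all 6 from KO2, and 2 of 24 WT cells, and in ndLN 3 of 13 KO cells, all 3 from KO1, and 0 of 11 WT cells. The 6 measured T cell genes other than Cd3e summed to 8.85 and 3.81 UMIs per 10000 in dLN cells of KO1 and KO2, against 1.26 and 3.76 in WT1 and WT2. In ndLN the sums were 4.32 and 4.55 in KO1 and KO2, against 0 and 1.25 in WT1 and WT2, and Cd3d, Cd3g, Cd4 and Cd5 were at 0. In dLN cells 3 of 45 had UMIs of at least 3 T cell genes. Averaged over single cells, the T cell sum was 4.29 in Ccl5-low and 0.223 in Ccl5-high dLN cells, and 2.74 and 0.36 in those of ndLN. The mean T cell sum was higher in KO cells of both nodes, but in dLN KO2 (3.81) lay close to WT2 (3.76). The part of the T cell genes, of Cd209a and of the cells with 1 UMI each in the genotype comparisons below was not tested.

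**Figure D2:**
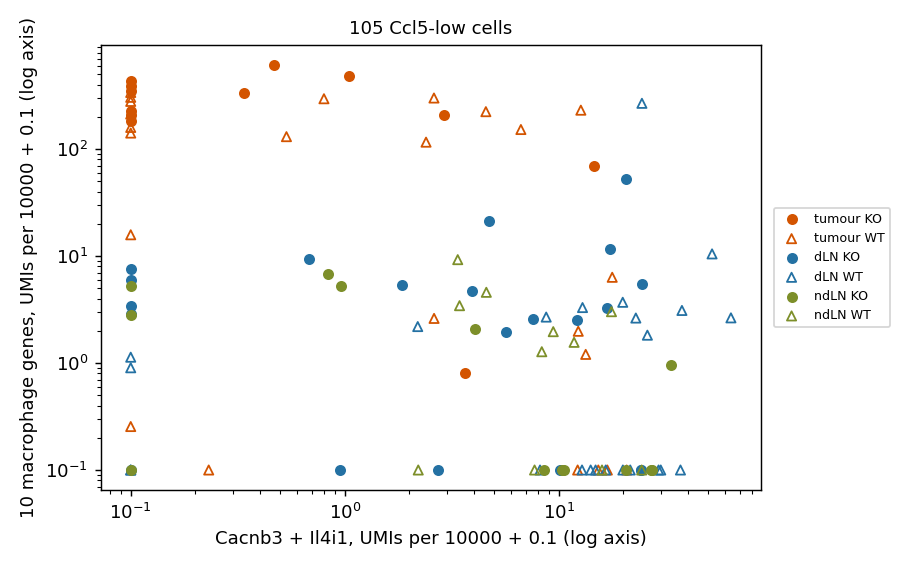
Each of the 105 Ccl5-low cells by its summed level of Cacnb3 and Il4i1 (UMIs per 10000, log axis after adding 0.1) and of 10 macrophage and monocyte genes (same scale), with tissues marked. Tumour cells reach the high end of the macrophage axis, up to 613, and 14 of the 26 cells without Cacnb3 and Il4i1 are tumour cells.

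The 105 cells were also set against all other cells of the same samples, as a description because they were selected. In tumours their conventional dendritic cell sum averaged 278 UMIs per 10000, against 263 in all other tumour cells, and it was lower than in the other cells in WT1 (238 against 263). The 20 genes with the largest mean difference over the 12 samples included the rule genes Fscn1 and Ccr7. They also included the MHC class II genes H2-Aa, H2-Eb1 and H2-Ab1 and their chaperone Cd74, the lipid carrier Fabp5, the lysosomal reductase Ifi30 and the protease inhibitor Cst3. Fabp5 averaged 16.4 UMIs per 10000 in Ccl5-low cells, against 1.51 in all other cells, a difference of 2.25 on the log2 scale that was above 0 in 12 of 12 samples. Tbc1d4, a regulator of vesicle traffic, averaged 6.42 in Ccl5-low cells, against 0.616 in all other cells. Not all of these genes set Ccl5-low cells apart from Ccl5-high cells. Against the latter, Tbc1d4 differed by -0.09 in dLN and 0.73 in ndLN on the log2 scale, neither past the test. Cst3 was lower in Ccl5-low cells, by -1.52 in dLN, where 1 of 4 mice went the other way, and by -1.43 in ndLN. The class II genes and Cd74 were higher, as given below. Cd83, a surface protein of mature dendritic cells, averaged 7.995 in Ccl5-low cells and 2.43 in all other cells.

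The share of Ccr7+ Fscn1+ cells that were Ccl5-low was compared between genotypes. In dLN it was 26.2% and 34.5% in KO1 and KO2 (11 of 42 and 10 of 29 cells; exact Clopper-Pearson 95% intervals 13.9 to 42.0 and 17.9 to 54.3), against 6.37% and 7.38% in WT1 and WT2 (13 of 204 and 11 of 149 cells; 3.44 to 10.7 and 3.74 to 12.8). The KO mice were above the WT mice with no overlap, a difference of 23.5 percentage points. In ndLN the share was 15% and 20% in KO1 and KO2, against 3.81% and 5.38% in WT1 and WT2, a difference of 12.9 points, again with no overlap. An exact two-sided permutation test over mice gave p = 0.3333 in each node, the smallest p that 2 against 2 mice allow. The intervals cover counting error only.

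As a share of all cells, the Ccl5-low cells overlapped between genotypes in both nodes, and the Ccl5-high cells did not. In dLN the Ccl5-low cells made up 1.081% and 0.686% in KO1 and KO2, against 1.14% and 1.04% in WT1 and WT2. The Ccl5-high cells made up 3.05% and 1.304% of dLN cells in KO1 and KO2, against 16.7% and 13.1% in WT1 and WT2. In ndLN the Ccl5-low share of all cells was 1.57% and 0.409% in KO1 and KO2, against 0.531% and 0.728% in WT1 and WT2. The Ccl5-high share of ndLN cells was 8.89% and 1.64% in KO1 and KO2, against 13.4% and 12.8% in WT1 and WT2. The exact permutation p for the Ccl5-high share was 0.3333 in each node.

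The shares in the nodes kept their order under other rules. With cells that also had UMIs of Cacnb3 and Il4i1, the dLN share was 14.3% and 16.7% in KO1 and KO2, against 2.94% and 6.92% in WT1 and WT2, and the ndLN share was 6.52% and 17.6% in KO1 and KO2, against 1.09% and 5.66% in WT1 and WT2. With every cell thinned to 2000 UMIs, the dLN difference was 15.1 points and the ndLN difference 11.96 points. The requirement of both markers, chosen after the data were seen, left a dLN difference of 10.54 points.

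In tumours the share was 43.8% and 83.3% in KO1 and KO2, against 40% and 57.1% in WT1 and WT2, and the genotypes overlapped (difference 14.97 points, exact permutation p = 0.6667). KO2 had 6 such cells in all. Without KO2 the difference was -4.82 points, and with cells thinned to 2000 UMIs it was -31.7 points, so no direction is given. Within each mouse the tumour share was above the dLN share, by 17.6 and 48.9 points in KO1 and KO2 and by 33.6 and 49.8 points in WT1 and WT2 (mean 37.5, exact sign-flip permutation p = 0.125, the smallest that 4 mice allow). After thinning to 2000 UMIs the mean was 8.59 points, and KO1 and KO2 were below 0. The dLN share was above the ndLN share in 4 of 4 mice, by 7.56 points on average (exact permutation p = 0.125). It was above in 3 of 4 mice with a Ccl5 limit of 1.5 (mean 5.43 points), after thinning (3.74 points) and with cells that had both Cacnb3 and Il4i1 (2.475 points).

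**Figure D3:**
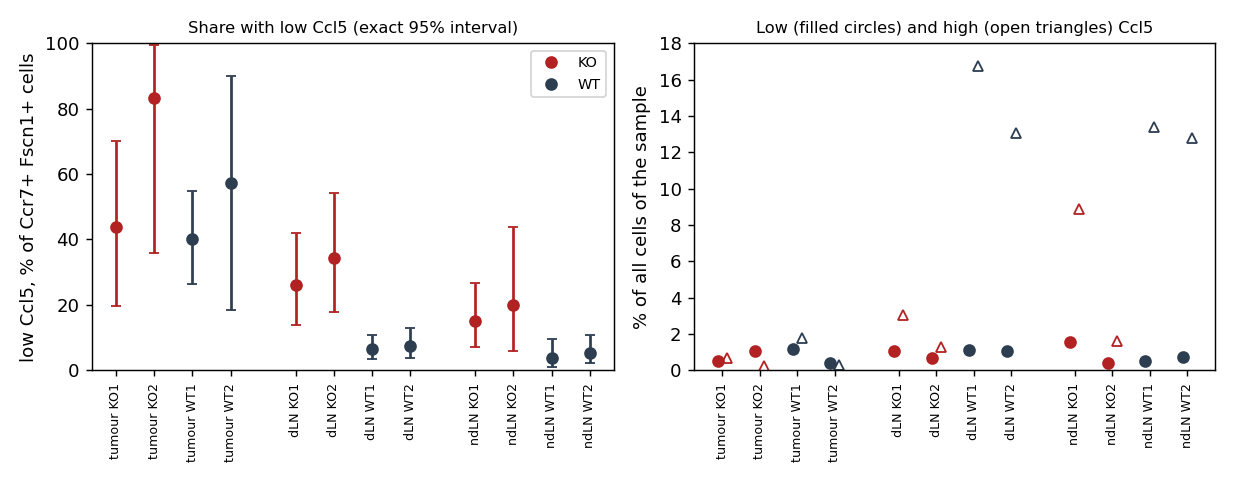
Left, Ccl5-low cells as a percentage of all Ccr7+ Fscn1+ cells of each mouse with exact 95% intervals, KO in red to the left of WT in dark, by tissue. Right, Ccl5-low cells (circles) and Ccl5-high cells (triangles) as a percentage of all cells: in dLN the circles lie between 0.686% and 1.14% in both genotypes, and the triangles lie at 3.05% and 1.304% in KO, against 16.7% and 13.1% in WT.

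Ccl5-low cells were next set against Ccl5-high cells of the same node and mouse. Ccl5 of the same cells formed both groups, so genes that vary with Ccl5 from cell to cell can differ through that choice, and the 6 genes of the rule were left out of the test. In dLN, limma with a term for the mouse called 166 of 7571 genes higher and 177 lower at a Benjamini-Hochberg adjusted p of 0.05, or 2.19% and 2.34% of all genes tested. In ndLN 97 of 6240 genes were higher and 133 lower, or 1.55% and 2.13%. The nodes shared 142 calls, all in the same direction, which are 41.4% of the dLN calls and 61.7% of the ndLN calls. limma borrows spread from all genes, and an exact test over 4 pairs of one gene could not go below 0.125.

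The genes with the largest rise in Ccl5-low cells of both nodes encode MHC class II, which presents peptides to CD4 T cells. H2-Ab1, a beta chain, averaged 85.8 and 87.2 UMIs per 10000 in Ccl5-low dLN cells of KO1 and KO2 and 53.0 and 21.1 in those of WT1 and WT2, against 5.13 and 8.52 in Ccl5-high cells of KO1 and KO2 and 4.13 and 2.34 in those of WT1 and WT2. Every Ccl5-low value lay above every Ccl5-high value. H2-Ab1 had a log2 difference of 3.33 (SE 0.340), with a limma adjusted p of 8.52e-13. In ndLN H2-Ab1 averaged 47.2 ± 10.2 in Ccl5-low cells and 2.85 ± 0.508 in Ccl5-high cells (SD, n = 4 mice each; log2 difference 3.58, limma adjusted p = 8.80e-26).

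H2-Eb1, another beta chain, averaged 90.9 ± 40.7 UMIs per 10000 in Ccl5-low dLN cells and 15.3 ± 1.05 in Ccl5-high dLN cells (SD, n = 4 mice each). H2-Aa, an alpha chain, averaged 129 ± 46.2 and 31.9 ± 2.01 in the same order, and Cd74, the invariant chain that guides class II molecules to the endosome, 364 ± 112 and 79.2 ± 11.6. The 3 genes were higher in Ccl5-low cells of 4 of 4 mice in both nodes, with log2 differences in dLN of 2.60, 2.29 and 1.98. An H2-Aa UMI was present in 91.1% of Ccl5-low and 89.2% of Ccl5-high dLN cells, and an H2-Ab1 UMI in 35 of 45 and 197 of 379. Of dLN T cells 13.6% had an H2-Aa UMI. The median depths were 8016, 8172 and 4849 UMIs per cell in Ccl5-low, Ccl5-high and T cells.

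The peptide-exchange genes moved with them. H2-DMa averaged 4.58 and 11.4 UMIs per 10000 in Ccl5-low dLN cells of KO1 and KO2 and 4.74 and 0.872 in WT1 and WT2, against 0.797, 1.77, 0.586 and 0.301 in Ccl5-high cells of KO1, KO2, WT1 and WT2. Each mouse had the higher value in its Ccl5-low cells, while WT2 overlapped with the Ccl5-high range of other mice. The log2 difference was 1.56 in dLN and 1.56 in ndLN. H2-DMb2 and H2-Oa, a partner of the exchange factor and a chain of its inhibitor, were also higher in both nodes, by 1.58 and 0.88 in dLN. Ciita, the master activator of class II genes, was higher by 0.45 in dLN and 0.49 in ndLN. Of 14 genes in the MHC class II list, 9 were higher and 1 lower in dLN and 9 were higher and 0 lower in ndLN. Over all genes tested 2.19% were higher in dLN and 1.55% in ndLN. The median log2 difference of the list was 0.86 in dLN and 0.96 in ndLN, against 0.03 for all genes tested in each node. The gene that was lower in dLN was Lgmn, a lysosomal protease (log2 difference -0.65).

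The promoters of 2 of the genes with the largest rise are shown because class II genes are controlled together through short elements before the start, among them a CCAAT box. RefSeq gives H2-Aa at chr17:34287774-34288073 on the minus strand and H2-Eb1 at chr17:34305617-34305916 on the plus strand of GRCm38.p6, from 250 bases before to 50 bases after the start. Capitals mark CCAAT or its reverse complement ATTGG, the only motif searched, on both strands.
H2-Aa: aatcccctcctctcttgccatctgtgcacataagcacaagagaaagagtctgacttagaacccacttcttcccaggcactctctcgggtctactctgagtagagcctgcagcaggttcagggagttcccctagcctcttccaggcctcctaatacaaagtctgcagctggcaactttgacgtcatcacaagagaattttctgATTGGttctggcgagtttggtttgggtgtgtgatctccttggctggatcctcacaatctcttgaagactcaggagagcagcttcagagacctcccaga
H2-Eb1: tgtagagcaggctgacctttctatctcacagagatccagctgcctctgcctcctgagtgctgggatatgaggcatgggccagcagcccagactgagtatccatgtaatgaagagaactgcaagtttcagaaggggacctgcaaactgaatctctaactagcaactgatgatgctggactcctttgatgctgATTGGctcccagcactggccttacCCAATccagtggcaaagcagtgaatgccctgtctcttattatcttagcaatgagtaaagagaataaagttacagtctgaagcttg
Of 32851 such windows of all genes 12289, or 37.4%, held the motif. Of 12 windows from the 10 matched genes of the class II list, 8 held it. A match describes the letters of the window and does not show that a factor binds there.

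Immediate early genes, which are switched on within minutes of a stimulus, and heat shock genes form the next list. Fos, a subunit of AP-1, averaged 11.4 and 9.38 UMIs per 10000 in Ccl5-low dLN cells of KO1 and KO2 and 15.2 and 0.726 in WT1 and WT2, against 2.34, 2.24, 1.72 and 0.640 in Ccl5-high cells of KO1, KO2, WT1 and WT2. WT2 was low in both classes. Fos had a log2 difference of 1.54 (SE 0.234; limma adjusted p = 1.11e-06) in dLN and 1.20 in ndLN. Nr4a1, a nuclear receptor induced by activation, was higher by 0.89 in dLN and 1.29 in ndLN. All 16 genes of the list had a log2 difference above 0 in dLN and 6 passed the test, with a median of 0.48 against 0.03 for all genes. In ndLN 15 of 16 were above 0 and 5 passed. Over all genes tested 2.19% passed as higher in dLN and 1.55% in ndLN.

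Il1b, an inflammatory cytokine, averaged 8.06 and 8.04 UMIs per 10000 in Ccl5-low ndLN cells of KO1 and KO2 and 3.76 and 2.94 in WT1 and WT2, against 0.431, 1.51, 0.200 and 0.442 in Ccl5-high cells of KO1, KO2, WT1 and WT2. The classes did not overlap, and Il1b had a log2 difference of 1.48 (SE 0.225; limma adjusted p = 1.85e-08). In dLN the Il1b difference was 0.71 (limma adjusted p = 0.0034), with 2 of 4 mice higher. Without WT1 the limma adjusted p was 0.4601, and with the UMIs of the cells of a mouse pooled it was 0.1019. Gpr183, the oxysterol receptor that positions dendritic cells at the edge of follicles, was higher in 4 of 4 mice of both nodes, by 0.89 in dLN and 0.96 in ndLN, and did not pass after thinning to 2000 UMIs (limma adjusted p = 0.4238 in dLN, where 2 mice were left, and 0.1069 in ndLN), but passed in dLN when thinned with at least 4 cells (0.0076). In dLN Gpr183 averaged 3.2 ± 1.96 UMIs per 10000 in Ccl5-low cells and 0.512 ± 0.412 in Ccl5-high cells (SD, n = 4 mice each). Tgfb1, a cytokine that restrains T cells, was higher by 0.70 in dLN and 0.71 in ndLN. Cd83 differed by 1.10 in ndLN (limma adjusted p = 0.0170) and by 0.82 in dLN (0.1261). The ndLN call was lost without KO1 (0.2915), KO2 (0.1492) or WT2 (0.1014), with a pseudocount of 0.1 (0.0581) and with Ccl5 limits of 1.5 and 3.5 (0.0689), and in dLN Cd83 passed with pooled UMIs (0.0416). Cd40 and the NF-kB subunit Relb went the other way, by -1.008 and -1.135 in ndLN (limma adjusted p = 0.0014 and 0.0122). In dLN they differed by -0.67 and -0.82 (0.1128 and 0.1711). Both ndLN calls were lost without KO2 or WT1 and after thinning, and that of Relb also without KO1. Both genes passed in dLN with pooled UMIs or without WT2.

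Many genes of the maturation and migration list were lower in Ccl5-low cells. Of 18 tested genes of the list other than Ccr7 and Fscn1, 12 were lower and 0 higher in dLN. Their median log2 difference was -1.19, against 0.03 for all genes tested, of which 2.34% were lower. In ndLN 8 of 17 were lower, with a median of -0.88, against 0.03 for all genes tested, of which 2.13% were lower. This list, like the others, was chosen with earlier results of these data known. Most Ccr7+ Fscn1+ cells of the nodes were Ccl5-high, so these counts are a description and no independent test of the list. Epsti1, an interferon-induced gene high in mature dendritic cells, averaged 5.29 and 3.42 UMIs per 10000 in Ccl5-low dLN cells of KO1 and KO2 and 6.55 and 24.1 in WT1 and WT2, against 63.2, 50.2, 87.4 and 86.2 in Ccl5-high cells of KO1, KO2, WT1 and WT2. The classes did not overlap, and the log2 difference was -3.19 (SE 0.318) in dLN and -3.57 in ndLN. Cacnb3 had log2 differences of -1.39 in dLN and -1.49 in ndLN, both past the test, with WT2 in dLN lower on the log2 scale but not in UMIs per 10000. Zmynd15, a zinc finger gene, had log2 differences of -1.85 in dLN and -2.59 in ndLN. The transcript AW112010 had differences of -3.54 and -3.52.

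The chemokine Ccl22 split the mice. It averaged 1.04 and 0 UMIs per 10000 in Ccl5-low dLN cells of KO1 and KO2 and 1.33 and 20.3 in WT1 and WT2, against 7.48, 8.84, 10.6 and 10.3 in Ccl5-high cells of KO1, KO2, WT1 and WT2. The log2 difference in dLN was -1.46 (SE 0.300; limma adjusted p = 4.51e-04), and WT2 went the other way. The limma adjusted p was 0.0531 without KO2, 0.3218 after thinning and 0.1729 after thinning with at least 4 cells. In ndLN the difference of -0.81 did not pass the test (limma adjusted p = 0.1462), and 2 mice were higher in Ccl5-low cells. By the levels given below, Ccl22 in ndLN was higher in the Ccl5-low cells of WT1 and WT2 and lower in those of KO1 and KO2. The mean difference therefore does not describe every mouse. It passed without WT1 (0.0044), with a pseudocount of 0.1 (0.0208) and with pooled UMIs (0.0390). Ccl17, its partner ligand of Ccr4, had a log2 difference of -0.55 in dLN (limma adjusted p = 0.0036), lost without KO2, with no Ccl17 UMI in the Ccl5-low cells of KO1 and KO2. On the log2 scale it was lower in 4 of 4 mice, and in UMIs per 10000 in 3 of 4. Socs2, a feedback inhibitor of cytokine signalling, was lower in dLN (-1.43) and differed by -0.47 in ndLN (limma adjusted p = 0.5484).

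MHC class I genes moved opposite to class II. Of 14 genes of the class I list, 10 were lower and 0 higher in each node, with median log2 differences of -1.10 in dLN and -0.98 in ndLN. Over all genes tested 2.34% were lower in dLN and 2.13% in ndLN. B2m, the light chain of class I, averaged 39.5 ± 9.79 UMIs per 10000 in Ccl5-low dLN cells and 73.0 ± 6.58 in Ccl5-high cells (SD, n = 4 mice each). Psme2, a subunit of the proteasome activator, averaged 6.66 and 6.15 in Ccl5-low dLN cells of KO1 and KO2 and 6.90 and 25.6 in WT1 and WT2, against 31.4, 26.4, 30.8 and 32.3 in Ccl5-high cells of KO1, KO2, WT1 and WT2. The log2 differences in dLN were -1.04 for B2m and -1.72 for Psme2. The immunoproteasome subunit Psmb8 had -1.43 and the classical class I chain H2-K1 -1.17.

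Cytokine genes and lineage factors were divided. Il15, which sustains memory T cells and NK cells, averaged 0.827 ± 0.509 UMIs per 10000 in Ccl5-low dLN cells and 2.67 ± 0.317 in Ccl5-high cells (SD, n = 4 mice each; log2 difference -1.12), and its receptor chain Il15ra had -0.80. In ndLN the differences were -1.33 and -1.01. Irf8, a factor of type 1 dendritic cells, had -1.27 in dLN and -1.37 in ndLN. From the type 2 list Sirpa, Klf4, Cd209a and Cd7 were higher in dLN, 4 of 11 tested, and Cd7 alone in ndLN, 1 of 12. Of all genes tested 2.19% were higher in dLN and 1.55% in ndLN. In dLN Cd209a was higher in 2 of 4 mice, with no UMI in Ccl5-low cells of KO1 and WT2, Klf4 and Cd7 in 3 of 4 and Sirpa in 4 of 4. Of the interferon-stimulated list 3 of 14 were lower in dLN and 1 of 9 in ndLN, Irf1 in both, against 2.34% and 2.13% of all genes tested. The single ndLN call of either list describes that gene alone. Cd274, Pdcd1lg2, Cd80, Cd86, Il12b and Casp1 passed the test in neither node. Il18 and Havcr2 did not pass the filter on low values, which counted Ccl5-low cells alone. Nlrp3 was tested in dLN alone and did not pass.

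The number of calls rested on single mice. In dLN leaving out KO1, KO2 or WT1 gave 195, 217 or 123 calls in place of 343, and in ndLN leaving out WT1 or WT2 gave 122 or 123 in place of 230. WT2 stood apart in dLN by its high Ccl22, Cacnb3 (10.8 UMIs per 10000, against 2.03 to 3.202 in the other mice) and Epsti1. With cells thinned to 2000 UMIs and at least 4 cells per sample, 105 genes passed in dLN and 80 in ndLN. The 20 genes named by rule in dLN kept their direction and their call in that thinned test, which was not planned. The planned thinned test in dLN left 2 mice. There 19 of the 20 genes were tested, 19 kept their direction and 8 kept their call.

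The class II level was also given for the cells with both mature markers. In the 35 node cells with UMIs of Cacnb3 and Il4i1, H2-Ab1 averaged 102 and 32.5 UMIs per 10000 in KO1 and KO2 and 42.1 and 30.3 in WT1 and WT2, against 4.27, 6.81, 3.60 and 2.62 in the 579 Ccl5-high node cells of KO1, KO2, WT1 and WT2 with the same markers. The values did not overlap. These cells were chosen after the data were seen, and no test is given.

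**Figure D4:**
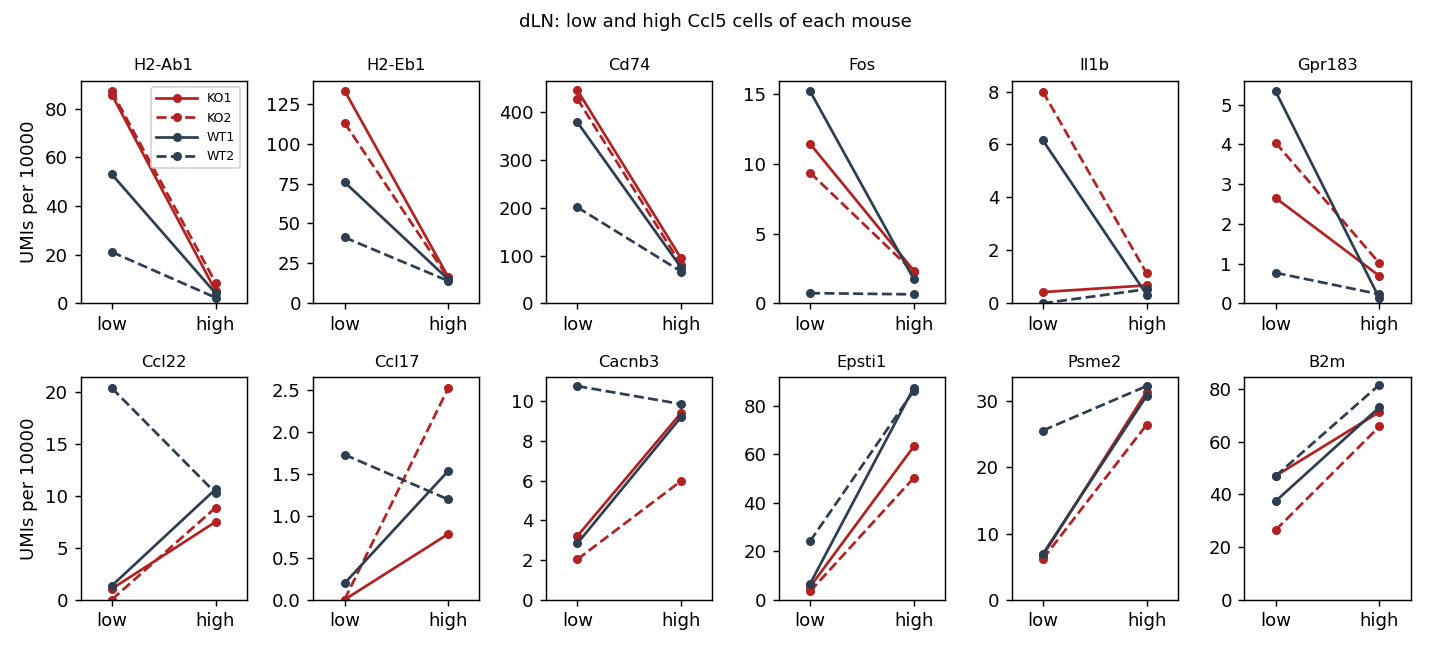
Mean level (UMIs per 10000, linear axes from 0) of 12 genes in Ccl5-low cells (left) and Ccl5-high cells (right) of the dLN, with 1 line per mouse, KO in red and WT in dark. H2-Ab1, H2-Eb1 and Cd74 are higher in Ccl5-low cells of all 4 mice, Epsti1, Psme2 and B2m are lower in all 4, and Ccl22, Ccl17 and Cacnb3 are higher in the Ccl5-low cells of WT2 alone in these units, while on the tested log2 scale Ccl17 and Cacnb3 are lower in WT2 too.

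KO and WT were compared within the Ccl5-low cells of each node. In dLN, with 10 to 13 cells per mouse, limma called 0 of 7574 genes higher and 0 lower (0% of all genes in each direction), and 245 genes had an unadjusted p under 0.05. In ndLN, with 4 to 9 cells per mouse, it called 0 of 7527 genes higher (0%) and 1 lower (0.0133%), with 477 at an unadjusted p under 0.05. With the channel as a replicate block, 3 genes passed in dLN and 4 in ndLN. Those not described below were, in ndLN, Tmsb4x (log2 difference -0.49; limma adjusted p = 0.0032) and 2610528A11Rik (1.501; 0.0232). Mean levels and shares of cells with a UMI are given side by side where counts allow.

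Ccl22 was the gene called in ndLN. It averaged 1.97 and 0 UMIs per 10000 in KO1 and KO2, against 37.6 and 36.2 UMIs per 10000 in WT1 and WT2. Both KO values lay far below both WT values. This gave a log2 difference of -2.97 (SE 0.546; limma adjusted p = 0.0188, and 2.34e-06 with the channel as a block). The call was kept with a pseudocount of 0.1 (0.0103), pooled UMIs (0.0140) and a fit of the node alone (0.0024). It was lost when any 1 mouse was left out (adjusted p 0.5557 to 0.9293, log2 difference -3.33 to -2.62), without the filter on low genes (0.8664) and with a Ccl5 limit of 1.5 (0.9319). A Ccl22 UMI was present in 3 of 13 KO cells, against 8 of 11 WT cells.

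In dLN Ccl22 averaged 1.04 and 0 UMIs per 10000 in KO1 and KO2, against 1.33 and 20.3 in WT1 and WT2. WT1 lay near KO1, and WT2 alone was high. The log2 difference was -1.81 (limma adjusted p = 0.9869, 0.0238 with the channel block and 0.0141 with no filter on low genes). A UMI was present in 2 of 21 KO cells, against 13 of 24 WT cells. The contrast of the genotype difference between the nodes did not pass the test (dLN minus ndLN 1.16, SE 0.773, limma adjusted p = 0.9997). That contrast was fitted without a mouse term, so the pairing of the nodes by mouse was not used. In node cells with UMIs of Cacnb3 and Il4i1, 4 of 8 and 0 of 6 KO cells had Ccl22, against 5 of 6 and 14 of 15 WT cells. Node T cells, which should lack Ccl22, had a UMI in 1.09%, at a median of 4875 UMIs per cell. In Ccl5-high cells the genotypes were close: 7.48 and 8.84 in KO1 and KO2 against 10.6 and 10.3 in WT1 and WT2 of dLN, and 9.58 and 11.7 in KO1 and KO2 against 10.54 and 10.9 in WT1 and WT2 of ndLN. Whether the genotype difference differs between Ccl5-low and Ccl5-high cells was not tested.

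The other genes of the dLN comparison did not pass the test and are given as values, with the settings under which they did. H2-Ab1 averaged 85.8 and 87.2 UMIs per 10000 in KO1 and KO2, against 53.0 and 21.1 in WT1 and WT2, with no overlap (log2 difference 1.88; limma adjusted p = 0.9869, 0.0298 with the channel block and 0.0187 with no filter on low genes). Dnajb1, a heat shock co-chaperone, averaged 4.29 and 5.81 in KO1 and KO2, against 1.31 and 0 in WT1 and WT2. Tmsb10, an actin-binding peptide, averaged 81.1 and 87.1 in KO1 and KO2, against 36.6 and 38.7 in WT1 and WT2, and passed with pooled UMIs (limma adjusted p = 0.0138). Cd74 averaged 447 and 428 in KO1 and KO2, against 379 and 201 in WT1 and WT2 (log2 difference 0.47; limma adjusted p = 0.9869, 4.77e-04 with the channel block and 3.74e-05 with no filter on low genes). H2-Aa (log2 difference 0.83) passed with pooled UMIs (limma adjusted p = 0.0138) and with no filter (0.0338), and H2-Eb1 (1.03) with pooled UMIs (0.0423). A crossed pairing of the channels, against the labels, also passed Cd74 (limma adjusted p = 7.48e-06), H2-Ab1 (0.0031) and Ccl22 (5.99e-04). These p were smaller than with the labelled block. H2-Aa (0.0153), Dnajb1 (0.0153), Lad1 (0.0136) and Zmynd15 (0.0151) passed with the crossed pairing but not with the labelled block. Whether a pass with a block reflects the channels was not tested. Klf2, a factor high in resting lymphocytes, averaged 6.45 and 2.70 in KO1 and KO2, against 0.320 and 0.052 in WT1 and WT2. The T cell sum given above was highest in KO1 (8.85), while KO2 (3.81) lay close to WT2 (3.76). Its part in this comparison was not tested.

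In the opposite direction Zmynd15 averaged 1.14 and 0.623 UMIs per 10000 in KO1 and KO2 of dLN, against 2.02 and 15.2 in WT1 and WT2. Lad1, a basement membrane protein gene, averaged 0.227 and 0.0794 in KO1 and KO2, against 1.28 and 4.92 in WT1 and WT2. Apol7c averaged 4.85 and 10.3 in KO1 and KO2, against 6.28 and 23.4 in WT1 and WT2, and overlapped on this scale. The calcium pump gene Atp2b1 averaged 0.787 and 0.288 in KO1 and KO2, against 2.25 and 6.96 in WT1 and WT2. In each of the 4 genes WT2 was the highest mouse.

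In ndLN Cst3 averaged 24.7 and 6.34 UMIs per 10000 in KO1 and KO2, against 103 and 88.2 in WT1 and WT2, with no overlap (log2 difference -2.37; limma adjusted p = 0.5087, 0.0019 with the channel block and 0.0469 with a pseudocount of 0.1). Fas, a death receptor, averaged 1.03 and 2.97 in KO1 and KO2 and was at 0 in WT1 and WT2, with UMIs in 7 of 13 KO cells and in 0 of 11 WT cells. Slc50a1, a sugar transporter, averaged 4.08 and 1.37 in KO1 and KO2 and was also at 0 in both WT mice. S100a10, a gene of the S100 family, averaged 1.011 and 0 in KO1 and KO2, against 4.81 and 3.66 in WT1 and WT2. The limma adjusted p of these 3 genes were 0.4629, 0.4076 and 0.6979 in that order, and none passed. In dLN, Fas averaged 0.523 and 0.483 in KO1 and KO2, against 0.956 and 0.173 in WT1 and WT2, so the genotypes overlapped there.

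By list, 0 genes passed in dLN in any of 18 lists. The 18 maturation genes tested were all below 0, with a median log2 difference of -0.86 against 0.02 for all genes, and 13 of 14 class II genes and 16 of 16 immediate early and heat shock genes were above 0. Ribosomal protein genes were above 0 in 61 of 63. In ndLN 9 of 18 maturation genes were above 0 and 9 below, 6 of 14 class II genes were above 0 and 19 of 63 ribosomal genes were above 0. Genes of 1 list share cells and mice, so such counts are no more than a description. The contrast of the 2 nodes called 0 of 7527 genes in each direction (0%), with 228 at an unadjusted p under 0.05. With the channel block it called 1, Zmynd15 (log2 difference of differences -2.89; limma adjusted p = 0.0035).

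Checkpoint and cytokine genes did not pass the test between genotypes in either node. Cd274 averaged 0.753 and 0 UMIs per 10000 in KO1 and KO2 of dLN, against 0.651 and 0.276 in WT1 and WT2. In ndLN it averaged 0.551 and 4.91 in KO1 and KO2, against 0.659 and 0.602 in WT1 and WT2. Cd40, which receives help from T cells, averaged 1.35 and 0.628 in KO1 and KO2 of dLN, against 1.26 and 7.34 in WT1 and WT2. Il1b, of interest because the series concerns inflammasome activation, averaged 0.423 and 7.996 in KO1 and KO2 of dLN, against 6.16 and 0 in WT1 and WT2. In ndLN Il1b was 8.06 and 8.04 in KO1 and KO2, against 3.76 and 2.94 in WT1 and WT2 (log2 difference 1.09; limma adjusted p = 0.7677). Each of these pairs overlapped except Il1b in ndLN.

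**Figure D5:**
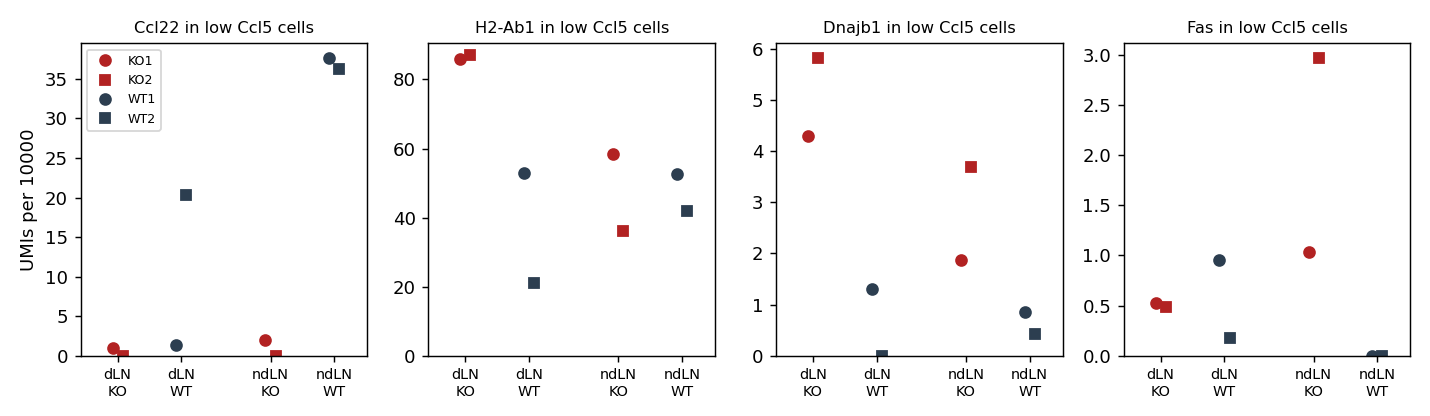
Mean level (UMIs per 10000) of Ccl22, H2-Ab1, Dnajb1 and Fas in Ccl5-low cells of each mouse, KO left of WT, for dLN and ndLN. Ccl22 lies at 1.97 and 0 in KO against 37.6 and 36.2 in WT of ndLN, while in dLN WT2 alone is high.

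The nodes were compared within mice. Between dLN and ndLN 0 of 7527 genes passed in either direction (0%), with 392 genes at an unadjusted p under 0.05 and a lowest adjusted p of 0.1793. Cd74 averaged 447 and 428 UMIs per 10000 in dLN cells of KO1 and KO2 and 379 and 201 in WT1 and WT2, against 446, 313, 358 and 304 in ndLN cells of KO1, KO2, WT1 and WT2. The nodes overlapped, and the scales differed in direction. In UMIs per 10000 dLN was above ndLN in 3 of 4 mice, while the mean over cells on the log2 scale was lower in dLN in 3 of 4 (log2 difference -0.43; limma adjusted p = 0.1793, 0.0160 with no filter on low genes). Without KO1 Cd74 passed (limma adjusted p = 2.08e-04), together with Tmsb4x. Cyfip1, a regulator of actin assembly, had a log2 difference of -0.98 and was lower in dLN in 4 of 4 mice (limma adjusted p = 0.1793). Ccl22 differed by -0.70 and H2-Ab1 by -0.05, neither past the test.

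Tumour Ccl5-low cells were set against dLN Ccl5-low cells of the same mice, with 4 to 20 tumour cells per mouse. limma called 525 of 9230 genes higher in tumours and 83 lower, or 5.69% and 0.899%. The 10 largest rises were led by macrophage genes and held C1qa, C1qb and C1qc. Lyz2, lysozyme of myeloid cells, averaged 93.2 and 138 UMIs per 10000 in tumour cells of KO1 and KO2 and 19.8 and 84.4 in WT1 and WT2, against 5.67, 5.67, 6.02 and 1.24 in dLN cells of KO1, KO2, WT1 and WT2. Apoe, a lipid carrier of macrophages, averaged 21.2, 85.4, 12.9 and 40.4 in tumour cells of KO1, KO2, WT1 and WT2, against 0, 0.165, 4.92 and 0.157 in dLN cells. No tumour value lay below a dLN value in either gene. The tumour cells were also read more deeply, with a median of 23725.5 UMIs per cell, against 8016 in the dLN cells. Of the 10 macrophage and monocyte genes, 10 had UMIs in both tissues, and their sums given above moved with this comparison. The part of these genes and of the depth in it was not tested, and a change within cells cannot be told apart from a change in which cells the rule took.

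Interferon and chemokine genes were higher in the tumour cells. Of 21 interferon-stimulated genes tested, 10 were higher and 0 lower, with a median log2 difference of 0.40 against 0.06 for all genes. Over all genes tested 5.69% were higher and 0.899% lower. Cxcl9, a ligand of the T cell receptor Cxcr3, averaged 19.6 and 2.51 UMIs per 10000 in tumour cells of KO1 and KO2 and 6.17 and 2.42 in WT1 and WT2, and was at most 0.0998 in dLN cells of the 4 mice. The log2 difference was 1.88 (SE 0.228; limma adjusted p = 5.06e-06). Isg15, a ubiquitin-like protein induced by interferon, had 1.60. Of the chemokine list 6 of 11 were higher, Cxcl2, Cxcl9, Cxcl10, Ccl2, Ccl3 and Ccl6.

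Of 11 genes of the regulatory and checkpoint list tested, 5 were higher and 0 lower in tumour cells, Tgfb1, Lgals9, Socs3, Cd274 and Pdcd1lg2, with a median log2 difference of 0.33 against 0.06 for all genes. Over all genes tested 5.69% were higher. Cd274 averaged 0.736 and 0.672 UMIs per 10000 in tumour cells of KO1 and KO2 and 2.13 and 1.47 in WT1 and WT2, against 0.753, 0, 0.651 and 0.276 in dLN cells of KO1, KO2, WT1 and WT2. KO1 was slightly lower in the tumour on this scale and higher on the log2 scale. The log2 difference was 0.64 (SE 0.163; limma adjusted p = 0.0167), and Pdcd1lg2, the gene of PD-L2, had 0.48 (limma adjusted p = 0.0397). Of 16 genes of the NADPH oxidase and antioxidant list, 7 were higher, among them the oxidase subunit Cybb (1.24).

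Genes of the mature node state were lower in the tumour cells. Il4i1 averaged 1.89 and 0.507 UMIs per 10000 in tumour cells of KO1 and KO2 and 3.32 and 0.666 in WT1 and WT2, against 7.15, 4.21, 15 and 11.1 in dLN cells of KO1, KO2, WT1 and WT2. The tissues did not overlap, and the log2 difference was -1.63 (SE 0.287; limma adjusted p = 5.11e-04). Tmem176a and Tmem176b, ion channel genes of dendritic cells, had -2.18 and -1.94, and Relb, the NF-kB subunit of mature dendritic cells, had -1.24. Of 18 maturation genes tested 6 were lower and 0 higher, against 0.899% and 5.69% of all genes tested. Flt3, the growth factor receptor of dendritic cells, had -0.80, and Icosl, a costimulatory ligand, had -0.72. Hspa1a and Hspa1b were the 2 genes of the immediate early and heat shock list that were lower.

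The count of 608 calls between tumour and dLN rested on single mice. It was 257 without KO1 and 305 without KO2. A Ccl5 limit of 1.5 left 2 mice with enough cells and 188 calls. All 20 genes named by rule kept their direction in each of these, and 13 kept their call with the limit of 1.5.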

How the data were processed

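Droplet 5′ RNA-seq of the sorted CD45+ cells was processed with Cell Ranger 3.0.2 on mm10, per the submitters' processing notes. The authors deposited natural log values of 1 plus the UMIs per 10000, as read from the values, in 12458 cells and 12638 genes. Another deposited table gives mouse and tissue for every cell. The values gave whole UMIs, within 0.01, for 100% of entries. No cell was removed and no doublet caller was run.

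The members and gene lists were chosen with earlier results of these data known. Per-mouse means of log2(1 + UMIs per 10000) over cells were tested with limma 3.58.1 (R 4.3.3; trend; two-sided; Benjamini-Hochberg at 0.05 over all genes with a UMI in at least 5% of the cells). Comparisons of tissues or of Ccl5 classes within mice had a mouse term. KO against WT in ndLN and the contrast of the nodes came from 1 fit of the 8 node samples. That fit had no mouse term, so the nodes of a mouse were treated as independent. For Ccl5-low against Ccl5-high cells the 5% was counted in Ccl5-low cells alone. A minimum of 10 cells per sample was planned. All 4 dLN samples met it, but no ndLN sample and 1 tumour sample did, so the other comparisons used at least 4 cells, a number chosen after the cells were counted, and KO against WT in dLN was fitted on dLN alone. Genes were named by size, 10 per direction, among calls above the median level whose groups do not overlap or whose pairs share a sign. Where fewer than 5 passed, the 5 with the smallest p per direction were eligible, and list genes past the test and a fixed set of genes were added. The labels place KO1 with WT1 and KO2 with WT2 in a shared channel. The channel differences of KO and WT correlated at -0.1205 in dLN (7571 genes) and 0.1148 in ndLN (7524 genes). Shares were compared by exact permutation over mice. The scripts were tested on simulated data. Python 3.11.15, numpy 2.4.6, scipy 1.17.1, pandas 2.3.3 and matplotlib 3.10.9 were used.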

Additional observations from a re-analysis of the deposited data

How the results depend on the processing

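With 4 to 20 cells per mouse and 2 mice per genotype, genes low in these cells were often not detectable, and p-values between genotypes rest on spread borrowed from all genes. For KO against WT in dLN (0 calls), pooled UMIs gave 3 calls, no filter on low genes 4 and the channel as a replicate block 3; a crossed pairing of the channels, chosen after the data were seen, gave 7 (4 higher, 3 lower). In ndLN (1 call), a pseudocount of 0.1 gave 2, pooled UMIs 2, no filter 0, the replicate block 4, a Ccl5 limit of 1.5 0, and leaving out a mouse 0 to 0. The contrast of the nodes gave 1 call with the replicate block, against 0 without it. For dLN against ndLN (0 calls), pooled UMIs gave 2, no filter 1, and leaving out a mouse 0 to 2. For tumour against dLN (608 calls), a pseudocount of 0.1 gave 1410, no filter 256, the Ccl5 limit of 1.5 188, and leaving out a mouse 257 to 644. For Ccl5-low against Ccl5-high cells in dLN (343 calls), thinning to 2000 UMIs left 2 mice and 10 calls, thinning with at least 4 cells gave 105, and leaving out a mouse 123 to 414. In ndLN (230 calls), thinning gave 80 and leaving out a mouse 122 to 166. The tumour share difference between genotypes was -31.75 points after thinning and -4.821 to 34.76 without a mouse. Over the single genes, 1483 recomputed values kept direction and call, 61 lost the call, 28 gained it and 0 turned. The cause of these shifts was not tested. A minimum of 20 cells, and in dLN the planned Ccl5 limits and the removal of cells with the most UMIs at 10 cells, left too few samples and were not run.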
